A study of Homo sapiens with 24 samples.

Results

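The genes described here are those of MHC class II antigen presentation together with their transcriptional regulator: CIITA, the chain genes HLA-DRA, HLA-DRB1, HLA-DPA1, HLA-DPB1, HLA-DQA1 and HLA-DQB1, the invariant chain gene CD74, and the peptide editor genes HLA-DMA and HLA-DMB. The 10 genes, of 19775 that a probe set lists alone, were chosen by their higher signal in inhibitor-treated leukemia cells of these same arrays, so every comparison of treated with vehicle cultures below describes them and is no test of them. All probe sets that list a member were taken, including those that list an HLA member beside other symbols, which gave 32 of the 54675 probe sets on the array. Of the 32, 26 list 1 gene symbol and 6 list several. A filter on low values, a log2 intensity of at least 4 in at least 3 of 24 arrays, was passed by 22 of the 32, and by 25334 probe sets in all. Among the 22, 5 passed only through the treated MV4-11 arrays, where these genes are high, so counts over the 22 do not speak for every probe set of the members. The 10 that did not pass include all 4 probe sets of HLA-DQA1, which leaves 9 of the 10 genes with a tested probe set.

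RNA of 2 human leukemia cell lines was measured on Affymetrix arrays after culture with EPZ004777, a small-molecule inhibitor of the histone methyltransferase DOT1L. MV4-11, labelled as a biphenotypic B myelomonocytic leukemia with the MLL-AF4 fusion, was grown in IMDM with 10% serum, and MOLM-13, labelled as an acute myeloid leukemia with the MLL-AF9 fusion, in RPMI with 10% serum. MV4-11 cultures received 3 uM EPZ004777 for 2, 4 or 6 days and MOLM-13 cultures for 6 days, each beside cultures with 0.1% DMSO as vehicle. Each of the 8 groups of line, day and agent has 3 biological replicates, and the labels do not say how these were made, so p-values measure the spread between these samples. Each line is a single model of its fusion, and line, fusion and medium cannot be told apart.

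MHC class II molecules are pairs of an alpha and a beta chain that present peptides from the endosomal pathway to CD4+ T cells. Their genes share a promoter module, the SXY module, that is bound by the RFX complex, CREB1 and NF-Y, and CIITA is the co-activator that these factors recruit and that sets how much class II RNA a cell makes. B cells, dendritic cells and activated macrophages carry class II, and myeloid leukemia cells vary in it. HLA-DRA is nearly invariant between people, whereas the DRB, DQ and DP beta chains are highly polymorphic, and the effect of an allele on hybridization to a probe set was not tested here.

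Because these genes moved together, the part of their promoters in which the X and Y boxes usually lie was examined in RefSeq promoters of GRCh38.p14, which span 250 bases before to 50 bases after each annotated start. The table held promoters for 8 of the 10 members, and CIITA and HLA-DRA were not among them. Each line gives the 120 bases from 140 to 21 bases before the start, read 5′ to 3′ on the gene's strand, and capitals mark matches on either strand to ATTGG, the core of the Y box that NF-Y binds, and to AGNAAC, letters found in X boxes. The windows lie at chr5:150412931-150413050 for CD74 (minus strand) and, on chromosome 6, at chr6:32589869-32589988 for HLA-DRB1 (minus), chr6:33075850-33075969 for HLA-DPB1 (plus), chr6:32637266-32637385 for HLA-DQA1 (plus), chr6:32666678-32666797 for HLA-DQB1 (minus) and chr6:32953118-32953237 for HLA-DMA (minus).
CD74: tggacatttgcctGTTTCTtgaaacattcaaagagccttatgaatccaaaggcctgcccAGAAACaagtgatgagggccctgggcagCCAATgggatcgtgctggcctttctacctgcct
HLA-DRB1: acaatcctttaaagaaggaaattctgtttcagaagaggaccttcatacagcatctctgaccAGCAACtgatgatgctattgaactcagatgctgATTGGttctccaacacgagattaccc
HLA-DPB1: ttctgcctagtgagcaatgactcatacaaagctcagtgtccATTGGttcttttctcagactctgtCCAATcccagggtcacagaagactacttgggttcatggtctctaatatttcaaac
HLA-DQA1: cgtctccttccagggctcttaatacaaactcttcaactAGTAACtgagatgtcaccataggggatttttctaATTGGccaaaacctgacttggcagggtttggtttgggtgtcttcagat
HLA-DQB1: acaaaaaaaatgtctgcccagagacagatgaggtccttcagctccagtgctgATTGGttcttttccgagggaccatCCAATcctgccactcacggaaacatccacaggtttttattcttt
HLA-DMA: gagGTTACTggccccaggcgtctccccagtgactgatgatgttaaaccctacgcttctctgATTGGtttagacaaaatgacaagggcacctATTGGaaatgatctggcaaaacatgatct

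ATTGG on either strand was present in the whole promoter of 7 of the 8 members (CD74, HLA-DRB1, HLA-DPB1, HLA-DQA1, HLA-DQB1, HLA-DMA and HLA-DMB), against 34.6% of all 35116 promoters in the table. The longer word CTGATTGG, which contains ATTGG, was present in 3 members (HLA-DRB1, HLA-DQB1 and HLA-DMA), against 3.97% of all promoters. AGNAAC on either strand was present in 6 members (CD74, HLA-DRB1, HLA-DPA1, HLA-DQA1, HLA-DMA and HLA-DMB), against 42.4% of all promoters. In HLA-DRB1 the AGNAAC match began 79 bases and the ATTGG match 46 bases before the start, and in HLA-DQA1 they began 102 and 68 bases before it. These are matches of letters and not binding sites.

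In MV4-11 cells treated with EPZ004777, CIITA and the 8 class II genes with a tested probe set had higher means than in vehicle cultures at every day, though HLA-DMB was not called on day 2, and HLA-DQA1 was dim. The median log2 change over the 22 member probe sets was 1.46 on day 2, 3.19 on day 4 and 3.74 on day 6, beside medians of 0.00, 0.00 and -0.01 over all probe sets tested. On day 2, 16 of the 22 were called higher and 0 lower at an adjusted p under 0.05 in limma, where 5.17% of all tested probe sets were called higher and 3.51% lower. On day 4, 21 were called higher and 0 lower, where 19.6% of all were called higher and 18.1% lower, and on day 6 all 22 were called higher, where 27.2% of all were called higher and 30.4% lower. Nothing is read from these counts, since the members were chosen on the same contrasts. The 3 treated arrays lay above the 3 vehicle arrays in 20 of the 22 probe sets on day 2 and in 22 on days 4 and 6. The share of all tested probe sets separated in this way was not computed, so nothing is read from these counts either. In RNA from whole cultures, more cells that carry a transcript and more transcript per cell cannot be told apart.

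**Figure D1:**
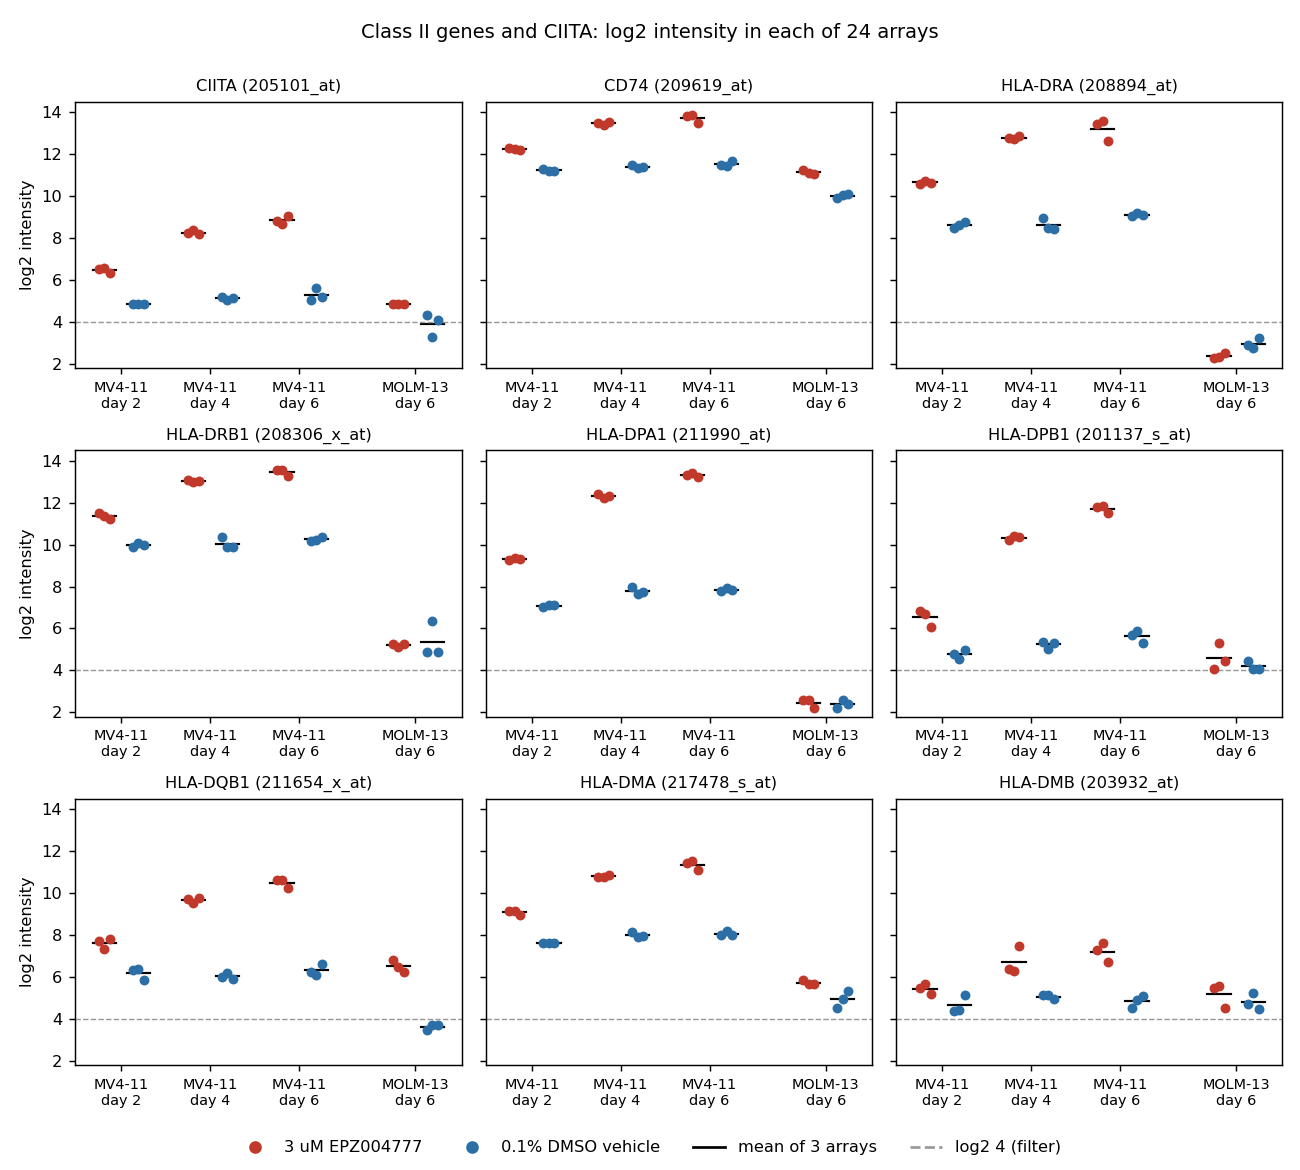
Log2 intensity (vertical axis) of CIITA and 8 class II genes in each of 24 arrays, by line and day (horizontal axis), with treated arrays in red, vehicle arrays in blue, black lines at the mean of 3 arrays and a dashed line at the filter value of log2 4. On day 6 in MV4-11 cells the treated arrays lie above the vehicle arrays in every panel, and in MOLM-13 cells HLA-DRA and HLA-DPA1 lie below the dashed line in all 6 arrays.

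CIITA (probe set 205101_at), the class II co-activator, had log2 intensities of 6.54, 6.60 and 6.35 in treated MV4-11 cells on day 2, against 4.87, 4.84 and 4.84 in vehicle cells. On day 4 it had 8.22, 8.37 and 8.19 in treated cells, against 5.17, 5.07 and 5.14 in vehicle cells. On day 6 it had 8.81, 8.69 and 9.05 in treated cells, against 5.04, 5.62 and 5.17 in vehicle cells. At no day did treated and vehicle arrays overlap. The log2 change (treated minus vehicle, ± SE) was 1.65 ± 0.19 on day 2, 3.14 ± 0.19 on day 4 and 3.57 ± 0.19 on day 6, and the day 6 change is 11.9-fold. In the order of the 8 group means the treated MV4-11 groups of days 6, 4 and 2 came first and did not overlap each other. The vehicle MV4-11 groups of days 6 and 4 overlapped, as did vehicle MV4-11 cells of day 2 and treated MOLM-13 cells, and vehicle MOLM-13 cells were last. The other probe sets that list CIITA, 210925_at and 211884_s_at, did not pass the filter, and 211884_s_at was at the lowest value of the arrays, log2 2.19, in all 24.

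HLA-DRA (208894_at), the alpha chain of HLA-DR, had 10.60, 10.72 and 10.65 in treated MV4-11 cells on day 2, against 8.50, 8.63 and 8.75 in vehicle cells. On day 4 the values were 12.78, 12.72 and 12.85 in treated cells, against 8.94, 8.47 and 8.43 in vehicle cells. On day 6 they were 13.43, 13.61 and 12.64 in treated cells, against 9.04, 9.18 and 9.09 in vehicle cells. The groups did not overlap, and the treated day 6 replicate 3 stood lowest of its group, below both other replicates. Its log2 change was 2.03 ± 0.18 on day 2, 4.17 ± 0.18 on day 4 and 4.12 ± 0.18 on day 6, so the day 4 change was 101.1% of the day 6 change. The other HLA-DRA probe set, 210982_s_at, changed by 2.06 ± 0.24, 4.27 ± 0.24 and 4.49 ± 0.24 on days 2, 4 and 6.

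HLA-DRB1, a beta chain of HLA-DR, is listed alone by 208306_x_at, which had 13.55, 13.57 and 13.26 in treated MV4-11 cells on day 6, against 10.19, 10.22 and 10.35 in vehicle cells. These groups did not overlap, and the same held on days 2 and 4. The log2 change was 1.40 ± 0.26 on day 2, 3.00 ± 0.26 on day 4 and 3.21 ± 0.26 on day 6. HLA-DRB1 is also listed with other DRB genes, and in part with HLA-DQB1, by 204670_x_at, 209312_x_at, 215193_x_at and 221491_x_at, whose signal cannot be split between those genes. Their day 6 changes in MV4-11 cells were 3.47, 3.36, 3.51 and 4.00. A further one, 238900_at, did not pass the filter and had 3.15, 3.53 and 5.24 in treated cells on day 6, against 2.30, 2.32 and 2.30 in vehicle cells.

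HLA-DPA1 (211990_at), the alpha chain of HLA-DP, had 9.28, 9.37 and 9.31 in treated MV4-11 cells on day 2, against 7.01, 7.10 and 7.10 in vehicle cells. On day 4 it had 12.41, 12.22 and 12.30 in treated cells, against 7.96, 7.66 and 7.76 in vehicle cells. On day 6 it had 13.33, 13.40 and 13.21 in treated cells, against 7.81, 7.92 and 7.83 in vehicle cells. The groups were apart at each day and the replicates of each group lay close together. The log2 change was 2.25 ± 0.10, 4.52 ± 0.10 and 5.46 ± 0.10 on days 2, 4 and 6, a 44-fold difference on day 6. A second probe set, 211991_s_at, changed by 5.55 ± 0.20 on day 6, and another, 213537_at, whose vehicle arrays lay near the lowest value, by 3.93 ± 0.15.

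HLA-DPB1 (201137_s_at), the beta chain that pairs with HLA-DPA1, had 6.84, 6.69 and 6.05 in treated MV4-11 cells on day 2, against 4.78, 4.54 and 4.96 in vehicle cells. On day 4 it had 10.20, 10.40 and 10.35 in treated cells, against 5.35, 5.04 and 5.33 in vehicle cells. On day 6 it had 11.77, 11.84 and 11.49 in treated cells, against 5.68, 5.88 and 5.33 in vehicle cells. No arrays of the groups overlapped, and its log2 changes of 5.08 ± 0.24 on day 4 and 6.07 ± 0.24 on day 6 were the highest among the 22 probe sets. On day 2 the change was 1.77 ± 0.24, which is 29.1% of the day 6 change. Its other probe set, 244485_at, reached 2.80 in a treated array of day 6 and was near the lowest value elsewhere.

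HLA-DQB1, the beta chain of HLA-DQ, is listed alone by 6 tested probe sets. The one with the highest mean, 211654_x_at, had 7.71, 7.33 and 7.82 in treated MV4-11 cells on day 2, against 6.34, 6.38 and 5.86 in vehicle cells. On day 4 it had 9.72, 9.54 and 9.76 in treated cells, against 5.99, 6.18 and 5.92 in vehicle cells. On day 6 it had 10.63, 10.62 and 10.24 in treated cells, against 6.22, 6.07 and 6.63 in vehicle cells. Treated arrays were above vehicle arrays at each day, with log2 changes of 1.43 ± 0.18, 3.64 ± 0.18 and 4.19 ± 0.18 on days 2, 4 and 6. On day 6 the 6 probe sets changed by 5.04 (209480_at), 4.57 (212998_x_at), 4.19 (211654_x_at), 3.87 (212999_x_at), 3.60 (211656_x_at) and 3.46 (209823_x_at). Probe set 210747_at, which did not pass the filter, was at the lowest value in nearly every array.

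HLA-DQA1, the alpha chain that pairs with HLA-DQB1, did not pass the filter with any of its 4 probe sets and was not tested. Its probe set 212671_s_at, shared with HLA-DQA2, had 4.34, 5.10 and 2.76 in treated MV4-11 cells on day 6, against 2.19, 2.19 and 2.19 in vehicle cells. Probe set 213831_at had 3.10, 4.27 and 2.64 in treated cells on day 6, against 2.19, 2.19 and 2.19 in vehicle cells. Both were above the lowest value in the 3 treated day 6 arrays, and in MOLM-13 cells both were at it in all 6 arrays. The other 2 probe sets of HLA-DQA1, 203290_at and 236203_at, did not exceed 2.57 and 2.37 in any array.

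CD74 (209619_at) encodes the invariant chain, which fills the groove of new class II molecules and guides them to endosomes. It had 12.29, 12.27 and 12.19 in treated MV4-11 cells on day 2, against 11.31, 11.20 and 11.22 in vehicle cells. On day 4 it had 13.47, 13.42 and 13.53 in treated cells, against 11.48, 11.35 and 11.41 in vehicle cells. On day 6 it had 13.83, 13.85 and 13.51 in treated cells, against 11.48, 11.45 and 11.67 in vehicle cells. The groups did not overlap, and CD74 was already among the bright probe sets in vehicle cells. Its log2 change was 1.01 ± 0.09, 2.06 ± 0.09 and 2.20 ± 0.09 on days 2, 4 and 6, a 4.59-fold difference on day 6. The dim probe set 1567628_at changed by 2.27 ± 0.38 on day 6, with treated replicate 3 at 4.31 beside 6.57 and 6.49 in the other replicates, and 1567627_at did not pass the filter.

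HLA-DMA (217478_s_at) and HLA-DMB (203932_at) encode HLA-DM, which exchanges the invariant chain remnant for peptide. HLA-DMA had 9.13, 9.15 and 8.96 in treated MV4-11 cells on day 2, against 7.63, 7.63 and 7.63 in vehicle cells. Its day 4 values were 10.77, 10.77 and 10.88 in treated cells, against 8.14, 7.88 and 7.93 in vehicle cells. On day 6 it had 11.44, 11.54 and 11.09 in treated cells, against 8.0, 8.18 and 8.0 in vehicle cells. Its groups were apart at each day, with log2 changes of 1.45 ± 0.15, 2.82 ± 0.15 and 3.30 ± 0.15 on days 2, 4 and 6. HLA-DMB had 7.28, 7.62 and 6.73 in treated cells on day 6, against 4.52, 4.88 and 5.11 in vehicle cells. Its groups did not overlap either, but its replicates were more widely spread, and its changes were 0.78 ± 0.33, 1.64 ± 0.33 and 2.37 ± 0.33.

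**Figure D2:**
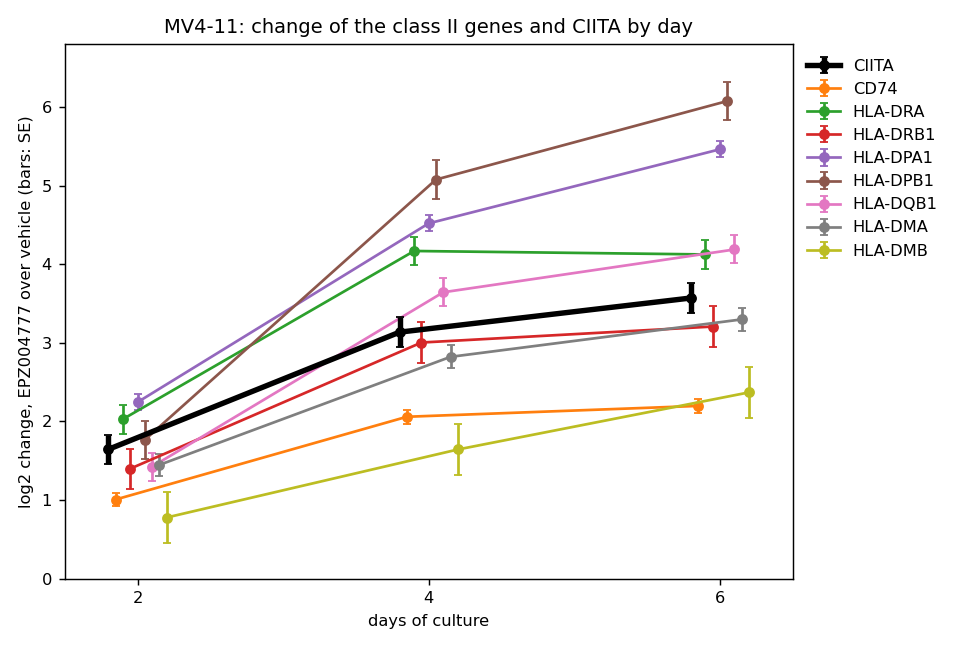
Log2 change of each gene in MV4-11 cells (vertical axis, EPZ004777 over vehicle, 3 arrays each, bars SE) by days of culture (horizontal axis), with CIITA as the thick black line and each gene represented by its probe set with the highest mean. CIITA's change of 3.57 on day 6 lies between those of HLA-DPB1 (6.07) and CD74 (2.20).

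Set against CIITA, the class II genes did not form one line above or below it. Each gene was taken by its probe set with the highest mean. On day 2, 3 of the 8 genes had a larger log2 change than CIITA (HLA-DPA1, HLA-DRA and HLA-DPB1) and 5 a smaller one, and the median of the 8 was 1.44 beside 1.65 for CIITA. On days 4 and 6, 4 of the 8 were above it (HLA-DPB1, HLA-DPA1, HLA-DRA and HLA-DQB1), with medians of 3.32 and 3.71 beside 3.14 and 3.57 for CIITA. The place of HLA-DQB1 changed with the probe set. On day 2 it was above CIITA by 212998_x_at (2.335) and 209480_at (1.96), and below by 212999_x_at (0.89), 209823_x_at (0.24) and 211656_x_at (0.22). It was below CIITA by 209823_x_at (1.13) and 211656_x_at (1.63) on day 4, and by 209823_x_at (3.46) on day 6. HLA-DPA1 was below CIITA by 213537_at on day 2 (0.23) and on day 4 (3.11). The probe sets that HLA-DRB1 shares with other genes lay above CIITA on day 4. They had 3.23 (204670_x_at), 3.155 (209312_x_at), 3.16 (215193_x_at) and 3.57 (221491_x_at), whereas 208306_x_at was below (3.00). On day 6 221491_x_at was above it too (4.00). HLA-DPB1 moved most against CIITA, from 0.12 above it on day 2 to 2.50 above it on day 6, and CD74 was 0.64 below it on day 2 and 1.37 below it on day 6. With the mean of its probe sets, of which only 205101_at passed the filter, CIITA itself changed by 0.60, 1.05 and 1.25 on days 2, 4 and 6. Its place among the class II genes thus depends on the probe sets used. These are descriptions of changes in log2 intensity, since the members were chosen on them.

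By day 2 CIITA had reached 46.1% of its day 6 log2 change and by day 4 87.8%. Among the class II genes, each by its probe set with the highest mean, the day 2 share ran from 29.1% (HLA-DPB1) to 49.2% (HLA-DRA). HLA-DMB was at 32.9%, HLA-DQB1 at 34.0% and CD74 at 45.9%, and other probe sets of a gene can give another share. On day 4 the share ran from 69.4% (HLA-DMB) to 101.1% (HLA-DRA). The change grew between days 2 and 4 by 1.49 ± 0.27 for CIITA, 3.31 ± 0.34 for HLA-DPB1 and 0.87 ± 0.46 for HLA-DMB (log2, ± SE). From day 4 to day 6 it grew by 0.43 ± 0.27 for CIITA, by 1.00 ± 0.34 for HLA-DPB1 and by 0.94 ± 0.15 for HLA-DPA1, whereas HLA-DRA differed by -0.04 ± 0.26. With the vehicle arrays of days 2 and 6 in place of those of day 4, the median day 4 change of the 22 probe sets was 3.14 and all 22 were called higher.

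In MOLM-13 cells the inhibitor moved the class II genes less and unevenly, with HLA-DQB1, CD74, CIITA and HLA-DMA higher in treated cells and HLA-DRA and HLA-DPA1 below the filter value with and without it. Over the 22 probe sets the median log2 change was 0.39, beside -0.03 over all probe sets tested. At an adjusted p under 0.05 in limma 8 were called higher, 2 lower and 12 neither, where 28% of all tested probe sets were called higher and 34.8% lower. The treated arrays lay above the vehicle arrays in 8 probe sets and below them in 1, and the share of all tested probe sets so separated was not computed.

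**Figure D3:**
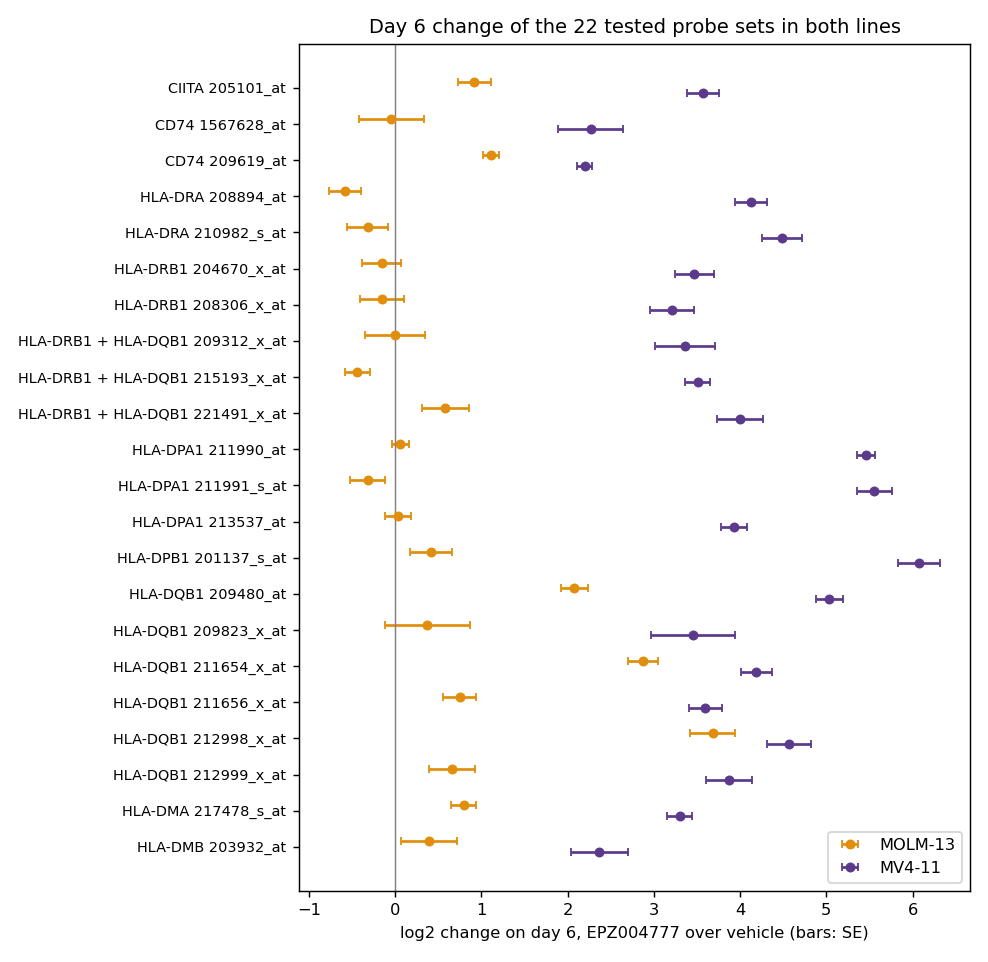
Log2 change on day 6 (horizontal axis, EPZ004777 over vehicle, 3 arrays each, bars SE) of the 22 tested probe sets (vertical axis) in MOLM-13 cells (orange) and MV4-11 cells (purple). Every purple point lies to the right of its orange one, and the orange points reach 3.68 in HLA-DQB1 (212998_x_at) and lie near 0 in HLA-DPA1 (211990_at, 0.06).

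HLA-DQB1 had the largest change in MOLM-13 cells. Probe set 212998_x_at had 6.40, 6.19 and 6.23 in treated MOLM-13 cells, against 2.92, 2.19 and 2.67 in vehicle cells. Probe set 211654_x_at had 6.81, 6.47 and 6.23 in treated cells, against 3.47, 3.71 and 3.71 in vehicle cells. Probe set 209480_at had 5.59, 5.35 and 5.09 in treated cells, against 3.39, 2.99 and 3.39 in vehicle cells. All 3 probe sets were apart between groups, with log2 changes of 3.68 ± 0.26, 2.87 ± 0.18 and 2.08 ± 0.16, and their vehicle arrays lay below log2 4. The other 3 probe sets of HLA-DQB1 changed by 0.75 ± 0.19 (211656_x_at), 0.66 ± 0.26 (212999_x_at) and 0.38 ± 0.49 (209823_x_at), so the 6 disagree in size.

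CD74 (209619_at) had 11.27, 11.11 and 11.05 in treated MOLM-13 cells, against 9.91, 10.07 and 10.10 in vehicle cells, a log2 change of 1.11 ± 0.09. HLA-DMA had 5.86, 5.67 and 5.66 in treated cells, against 4.53, 4.95 and 5.33 in vehicle cells, a change of 0.80 ± 0.15. Both genes were apart between groups. HLA-DMB had 5.48, 5.56 and 4.52 in treated cells, against 4.72, 5.21 and 4.46 in vehicle cells, and these overlapped, with a change of 0.39 ± 0.33. HLA-DPB1 had 4.07, 5.29 and 4.47 in treated cells, against 4.43, 4.07 and 4.07 in vehicle cells, which overlapped too, with a change of 0.42 ± 0.24.

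CIITA (205101_at) had 4.84, 4.84 and 4.84 in treated MOLM-13 cells, against 4.36, 3.28 and 4.11 in vehicle cells, a log2 change of 0.92 ± 0.19. The groups were apart, but the 3 treated arrays hold exactly the same value, which 2 vehicle MV4-11 arrays of day 2 hold as well. Such repeats are common among dim probe sets of these arrays: 79.7% of the 3649 tested probe sets with a mean under log2 5 have a value that 3 or more arrays share to 4 decimals, against 5.3% of the 12860 with a mean of at least 8. Of the 22 member probe sets, 11 have such a value, among them 211656_x_at and 212999_x_at of HLA-DQB1, whose treated MOLM-13 arrays hold it in 3 and 2 cases. Its part in these changes was not tested. The probe sets 212998_x_at, 211654_x_at and 209480_at of HLA-DQB1, 209619_at of CD74 and 217478_s_at of HLA-DMA hold no value shared by 3 or more arrays. In vehicle MOLM-13 cells, however, 211654_x_at had 3.471, 3.711 and 3.711, and 209480_at had 3.394, 2.994 and 3.394. Probe set 212998_x_at was at the lowest value in a vehicle MOLM-13 array. The vehicle arm of the HLA-DQB1 change in MOLM-13 cells thus also holds repeated or lowest values.

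HLA-DRA (208894_at) had 2.28, 2.34 and 2.52 in treated MOLM-13 cells, against 2.88, 2.77 and 3.22 in vehicle cells, all below the filter value. The treated arrays lay lower without overlap, by -0.58 ± 0.18 on the log2 scale, and the second probe set, 210982_s_at, overlapped between groups (-0.32 ± 0.24). HLA-DPA1 (211990_at) had 2.58, 2.58 and 2.23 in treated cells, against 2.21, 2.58 and 2.40 in vehicle cells, and did not differ beyond its spread (0.06 ± 0.10). HLA-DRB1 (208306_x_at) had 5.25, 5.12 and 5.24 in treated cells, against 4.86, 6.35 and 4.86 in vehicle cells, and its change of -0.15 ± 0.26 turned to 0.34 without vehicle replicate 2. Of the probe sets shared among DRB genes, 215193_x_at was called lower (-0.44 ± 0.15) with overlapping arrays. Its call was lost without treated replicate 2 (-0.29) or vehicle replicate 1 (-0.32), and that of HLA-DRA (208894_at) without vehicle replicate 3 (-0.45). The probe sets 208894_at, 210982_s_at, 211990_at and 213537_at of the alpha chains were under log2 4 in all 6 MOLM-13 arrays, and 211991_s_at of HLA-DPA1 reached 4.03 in 1 vehicle array.

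Measured against MV4-11 cells on day 6, the MOLM-13 log2 change was 68.6% as large for HLA-DQB1 (211654_x_at), 50.7% for CD74, 25.8% for CIITA and 24.1% for HLA-DMA. Over the 6 probe sets of HLA-DQB1 the share ran from 10.9% to 80.6%. In MOLM-13 cells the vehicle arrays of 211654_x_at were under log2 4, and the treated arrays of CIITA all held the repeated value of 4.84. The shares of HLA-DQB1 and CIITA therefore depend on low values and are not sizes of response. The MOLM-13 arrays overlapped between groups for HLA-DMB, HLA-DPB1, HLA-DPA1 and HLA-DRB1, and HLA-DRA was under log2 4, so no share is given for these 5 genes. The inhibitor effect in MOLM-13 minus that in MV4-11 cells was -1.08 ± 0.12 for CD74, -1.31 ± 0.25 for HLA-DQB1, -2.65 ± 0.27 for CIITA and -5.66 ± 0.34 for HLA-DPB1 (log2, ± SE). It was below 0 in all 22 probe sets, with a median of -3.29 beside -0.03 over all probe sets, and this includes probe sets near the lowest value in MOLM-13 cells.

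The vehicle cultures were also compared with each other. These arrays are an arm of the contrasts on which the members were chosen, so the p-values below are not independent of that choice. In vehicle cultures of day 6, 17 of the 22 probe sets were lower in MOLM-13 than in MV4-11 cells at an adjusted p under 0.05 and 0 were higher, where 30% of all tested probe sets were lower and 31.1% higher. Without the 5 that passed the filter only through treated MV4-11 arrays, 16 of 17 were lower. HLA-DRA (208894_at) averaged 2.96 ± 0.24 in MOLM-13 cells and 9.10 ± 0.07 in MV4-11 cells (SD, n = 3 arrays each), a log2 difference of -6.14 ± 0.18 (limma, adjusted p = 3.08e-16). HLA-DPA1 (211990_at) differed by -5.45 ± 0.10 (adjusted p = 1.68e-19) and HLA-DRB1 (208306_x_at) by -4.89 ± 0.26 (adjusted p = 2.99e-12). The arrays of the lines did not overlap in these 3 genes, and since HLA-DRA and HLA-DPA1 were under log2 4 in MOLM-13 cells, their differences depend on the lowest value of the arrays.

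HLA-DMA differed by -3.13 ± 0.15 (adjusted p = 4.01e-13) and HLA-DQB1 (211654_x_at) by -2.68 ± 0.18 (adjusted p = 1.24e-10) between vehicle cultures of MOLM-13 and MV4-11 cells. Differences were also found for CD74 (-1.51 ± 0.09, adjusted p = 1.75e-11), HLA-DPB1 (-1.44 ± 0.24, adjusted p = 4.22e-05) and CIITA itself (-1.36 ± 0.19, adjusted p = 3.8e-06). HLA-DMB differed by -0.04 ± 0.33 (adjusted p = 0.927). The sizes are not ranked between genes, since the lowest value of the arrays bounds how far a gene can lie below its MV4-11 level. Among the shared DRB probe sets the call of 221491_x_at (-0.83, adjusted p = 0.0128) was lost without MOLM-13 vehicle replicate 3 (-0.43) or MV4-11 vehicle replicate 2 (-0.73).

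Vehicle MV4-11 cultures of different days gave few calls among the members. Between days 6 and 2, 1 of the 22 probe sets was called higher, HLA-DPA1 (211990_at) by 0.78 ± 0.10 (adjusted p = 0.0011), where 0.418% of all tested probe sets were called higher and 0.367% lower. The day 6 arrays lay above the day 2 arrays without overlap in 14 of the 22, with a median log2 difference of 0.33 beside 0.00 over all, and CIITA differed by 0.43 ± 0.19 (adjusted p = 0.33). How many of all tested probe sets were so separated was not computed, so nothing is read from the 14. The day 4 vehicle arrays stand apart from the other vehicle arrays across the array as a whole, with 11.7% of all tested probe sets called higher and 10.6% lower than the mean of days 2 and 6. Of the member probe sets 1 was called there, again HLA-DPA1 (211990_at, 0.33 ± 0.09, adjusted p = 0.0128), and it was not called, at 0.24, without the day 4 vehicle replicate 1. Its vehicle means were 7.07, 7.79 and 7.85 on days 2, 4 and 6, so day 4 lay above day 2 and not above day 6.

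Other genes of the class II pathway, from lists of regulators, chains, endosomal proteases, surface molecules and the interferon gamma pathway, moved in both directions. Of the 58 genes listed, 40 had a tested probe set that lists 1 gene. In MV4-11 cells 6 of the 40 rose and 1 fell on day 2, where 5.17% of all tested probe sets were called higher and 3.51% lower. On day 4 13 rose and 8 fell (19.6% and 18.1% of all), and on day 6 20 rose and 5 fell (27.2% and 30.4% of all). In MOLM-13 cells 11 rose and 13 fell, where 28% of all were called higher and 34.8% lower. The inhibitor effect differed between the lines in 27 of the 40, with MOLM-13 below MV4-11 in 21 and above it in 6, where 26.3% of all tested probe sets were lower and 20% higher. All of these calls are at an adjusted p under 0.05 in limma over 25334 probe sets.

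Among the regulators of class II transcription 8 of 19 rose and 2 fell in MV4-11 cells on day 6, with a median log2 change of 0.13, where 27.2% of all tested probe sets were called higher and 30.4% lower. In MOLM-13 cells 5 rose and 9 fell, with a median of -0.16, where the shares of all were 28% and 34.8%. RFX5, the DNA-binding subunit of the RFX complex, rose by 0.62 ± 0.08 in MV4-11 cells (adjusted p = 4.6e-06) and changed by -0.62 ± 0.08 in MOLM-13 cells (adjusted p = 3.74e-06). The RFX subunit RFXAP fell in MOLM-13 cells (-1.22 ± 0.16, adjusted p = 2.95e-06) and had -0.30 ± 0.16 in MV4-11 cells (adjusted p = 0.126), where the mean of its probe sets was called lower (-0.62). The remaining subunit, RFXANK, also fell in MOLM-13 cells (-0.58 ± 0.15, adjusted p = 0.00249), with -0.01 ± 0.15 in MV4-11 cells (adjusted p = 0.971).

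The NF-Y subunits bind the Y box. NFYB fell in MOLM-13 cells (-0.83 ± 0.09, adjusted p = 1.31e-07) and had -0.09 ± 0.09 in MV4-11 cells (adjusted p = 0.397), while NFYA fell in both lines (-0.33 in MOLM-13 and -0.30 in MV4-11 cells). NFYC fell by 0.20 in MOLM-13 cells and rose by 0.41 in MV4-11 cells. CREB1, which binds the X2 box, rose in MV4-11 cells (0.79 ± 0.10, adjusted p = 1.95e-06) and had -0.16 ± 0.10 in MOLM-13 cells (adjusted p = 0.177). Among the co-activators, CREBBP rose in both lines (0.27 in MOLM-13 and 0.63 in MV4-11 cells), EP300 fell in MOLM-13 cells (-0.68) and KAT2B rose in MV4-11 cells (0.76). Averaged over their probe sets, NFYC had -0.39 and CREB1 -0.20 in MV4-11 cells, opposite to the probe set given here, and CREB1 was called lower in MOLM-13 cells (-0.58). The MOLM-13 call of NFYC was also lost under both further normalizations (-0.11 and -0.14), and without treated replicate 1 (-0.17) or vehicle replicates 1 (-0.17) or 2 (-0.16). That of CREBBP was lost without treated replicate 2 (0.22) or vehicle replicate 3 (0.21). SMARCA4, an ATPase of chromatin remodelling, had -0.06 in MOLM-13 and -0.10 in MV4-11 cells on day 6 and passed the test in neither, whereas the mean of its probe sets was called lower in both (-0.14 in MOLM-13 and -0.21 in MV4-11 cells).

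PRDM1 encodes a repressor that silences CIITA when B cells become plasma cells. It had 8.68, 8.60 and 8.31 in treated MV4-11 cells on day 6, against 4.42, 4.44 and 4.44 in vehicle cells. In MOLM-13 cells it had 4.18, 3.90 and 4.00 in treated cells, against 3.59, 2.99 and 3.27 in vehicle cells. It rose beside CIITA, by 1.83 ± 0.15 on day 2, 2.63 ± 0.15 on day 4 and 4.09 ± 0.15 on day 6 in MV4-11 cells (adjusted p = 1.48e-07, 5.98e-11 and 5.5e-14) and by 0.74 ± 0.15 in MOLM-13 cells (adjusted p = 0.000218). NLRC5, the CIITA relative that drives MHC class I genes, rose by 1.96 ± 0.07 in MOLM-13 cells (adjusted p = 7.34e-14) and by 0.51 ± 0.07 in MV4-11 cells (adjusted p = 1.1e-05), the reverse order of the lines to CIITA. ZXDC, a CIITA cofactor, rose in both lines (0.56 in MOLM-13 and 0.38 in MV4-11 cells).

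Of the factors that act on the CIITA gene itself, IRF1 rose in MOLM-13 cells (0.21 ± 0.07, adjusted p = 0.0147) and fell in MV4-11 cells (-0.32 ± 0.07, adjusted p = 0.000634). SPI1, which encodes the myeloid factor PU.1, had 0.30 ± 0.14 in MOLM-13 cells (adjusted p = 0.0668) and -0.28 ± 0.14 in MV4-11 cells (adjusted p = 0.0915). SPI1 was called higher in MOLM-13 cells under both further normalizations (0.38 and 0.36) and without treated replicate 3 (0.42), and lower in MV4-11 cells without treated replicate 2 (-0.36) or vehicle replicate 2 (-0.40). IRF8 and IRF2 fell in MOLM-13 cells (-0.44 and -0.39) and had 0.13 and 0.13 in MV4-11 cells, where neither passed the test, though IRF8 was called higher there after quantile normalization again (0.24). The MOLM-13 call was lost for IRF1 without treated replicate 3 (0.19) or vehicle replicate 1 (0.16), and for IRF2 without vehicle replicate 3 (-0.26). IRF4 was near the lowest value in MOLM-13 cells, with a log2 difference of -5.39 ± 0.09 from MV4-11 cells in vehicle cultures (adjusted p = 1.15e-20), and its inhibitor effect of 0.02 in MOLM-13 and 0.13 in MV4-11 cells passed the test in neither, though in MV4-11 cells it was called higher without treated replicate 3 (0.22). USF1 did not pass the filter.

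**Figure D4:**
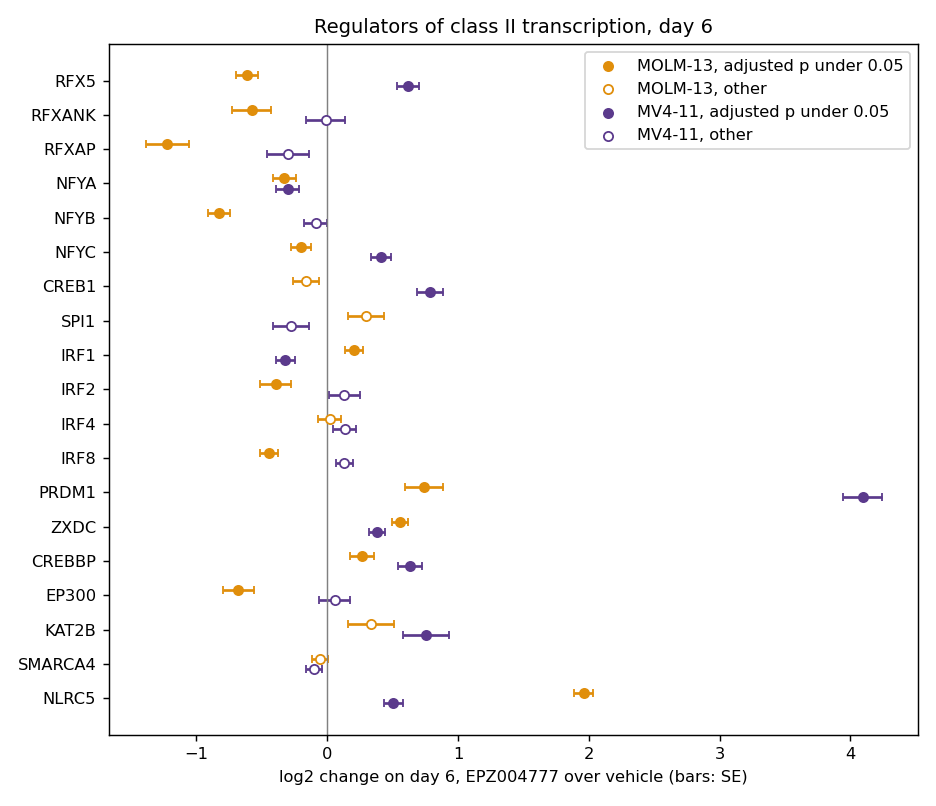
Log2 change on day 6 (horizontal axis, EPZ004777 over vehicle, 3 arrays each, bars SE) of the 19 tested regulators of class II transcription (vertical axis) in MOLM-13 cells (orange) and MV4-11 cells (purple), with filled points at an adjusted p under 0.05. RFX5 lies at -0.62 in MOLM-13 and 0.62 in MV4-11 cells, PRDM1 at 0.74 and 4.09, and NLRC5 at 1.96 and 0.51.

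Of the interferon gamma pathway, the best known inducer of CIITA, 2 of 7 tested genes rose and 2 fell in MV4-11 cells on day 6, and 3 rose and 1 fell in MOLM-13 cells. Over all tested probe sets 27.2% were called higher and 30.4% lower in MV4-11 cells, and 28% and 34.8% in MOLM-13 cells. The receptor chain IFNGR1 rose in both lines (0.41 in MOLM-13 and 0.43 in MV4-11 cells, adjusted p = 3.62e-05 and 2.87e-05), as did the kinase JAK1 (0.33 and 0.49). The other receptor chain, IFNGR2, had 0.04 in MOLM-13 cells and fell in MV4-11 cells (-0.26, adjusted p = 0.00928). The IFNGR2 call was lost without treated replicate 3 (-0.19) or vehicle replicate 1 (-0.20), and the mean of JAK1's probe sets had -0.16 in MOLM-13 and -0.21 in MV4-11 cells, neither called. The gene that fell in MOLM-13 cells was SOCS1 (-1.675 ± 0.196, adjusted p = 5.93e-07). In MV4-11 cells SOCS1 had -0.32 ± 0.196 on day 6 (adjusted p = 0.175). IFNG itself and the interferon-induced genes GBP1, GBP4 and GBP5 did not pass the filter, with group means no higher than log2 3.14. GBP2 passed it and was called in neither line on day 6 (0.19 in MOLM-13 and 0.25 in MV4-11 cells). It was called lower in MV4-11 cells on day 4 (-0.61), but had 0.30 against the vehicle arrays of days 2 and 6. On day 4 in MV4-11 cells 3 of the 7 rose and 4 fell, where 19.6% of all tested probe sets were called higher and 18.1% lower. The day 4 vehicle arrays were themselves called higher than those of days 2 and 6 in 4 of the 7 and lower in 0, where the shares of all were 11.7% and 10.6%. Against the vehicle arrays of days 2 and 6, IRF1 had -0.19 (from -0.44), IFNGR2 -0.45 (from -0.78) and SOCS1 -0.78 (from -1.19). The day 4 count therefore depends on the vehicle arrays used.

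Endosomal proteases, which cut antigens and the invariant chain, rose in 6 of 7 tested genes and fell in 0 in MV4-11 cells on day 6, and rose in 2 and fell in 0 in MOLM-13 cells. The shares of all tested probe sets called higher and lower were 27.2% and 30.4% in MV4-11 cells, and 28% and 34.8% in MOLM-13 cells. CTSS, the protease that trims the invariant chain, rose by 1.28 ± 0.12 in MV4-11 cells (adjusted p = 2.79e-08) and had 0.11 ± 0.12 in MOLM-13 cells (adjusted p = 0.431), and the lines differed by -1.17 ± 0.17 (adjusted p = 1.42e-05). CTSF rose by 0.98 ± 0.14 in MV4-11 cells (adjusted p = 7.53e-06), and CTSB rose in both lines (0.36 in MOLM-13 and 0.60 in MV4-11 cells). CTSD rose by 1.11 in MOLM-13 and 0.67 in MV4-11 cells. With the mean of probe sets, CTSS was called lower in MOLM-13 cells (-0.52), where its own probe set was called higher without treated replicate 1 (0.28), and CTSB was not called there (0.073).

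Among molecules that work beside class II at the cell surface, 1 of 5 tested genes rose and 3 fell in MOLM-13 cells, and 2 rose and 2 fell in MV4-11 cells on day 6. Over all tested probe sets 28% were called higher and 34.8% lower in MOLM-13 cells, and 27.2% and 30.4% in MV4-11 cells. CD86, a co-stimulatory ligand, rose in both lines, by 1.64 ± 0.27 in MOLM-13 cells (adjusted p = 3.41e-05) and 3.51 ± 0.27 in MV4-11 cells (adjusted p = 2.92e-09). Its vehicle MV4-11 arrays of day 6 had 3.57, 2.45 and 2.30, so the size of its MV4-11 change depends on low values. Treated cells averaged 7.28 in MOLM-13 and 6.28 in MV4-11 on day 6. CD83, which keeps class II at the surface, fell in both, by 0.74 ± 0.13 in MOLM-13 cells (adjusted p = 6.86e-05) and by 1.43 ± 0.13 in MV4-11 cells (adjusted p = 2.61e-08). MARCHF8, a ubiquitin ligase that removes class II from the surface, fell in MOLM-13 cells (-0.69, adjusted p = 2.66e-06) and rose by 0.23 in MV4-11 cells (adjusted p = 0.0383). The MV4-11 call of MARCHF8 was lost without treated replicate 3 (0.12) or vehicle replicates 1 (0.20) or 3 (0.24), and the mean of its probe sets was -0.031. The adhesion ligand CD58 fell in both lines, by 1.02 in MOLM-13 and by 0.40 in MV4-11 cells, with the MV4-11 call lost without treated replicate 3 (-0.28) or vehicle replicates 1 (-0.35) or 2 (-0.34).

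Of the other class II loci, 3 of 9 were tested. HLA-DPB2, a pseudogene next to HLA-DPB1, rose by 1.39 ± 0.10 in MV4-11 cells on day 6 (adjusted p = 1.32e-09) and had 0.00 in MOLM-13 cells, and HLA-DRB6, a DRB pseudogene, rose by 1.54 ± 0.41 in MV4-11 cells (adjusted p = 0.00306) and had 0.05 in MOLM-13 cells. Whether their probe sets also bind transcripts of the genes they resemble was not tested. HLA-DOB, which encodes a chain of HLA-DO, an inhibitor of HLA-DM, rose in MOLM-13 cells (0.54 ± 0.22, adjusted p = 0.036) and had -0.26 ± 0.22 in MV4-11 cells (adjusted p = 0.317). That MOLM-13 call was lost when any of 5 of the 6 MOLM-13 arrays was left out (0.46 to 0.57). In vehicle cultures HLA-DOB was higher in MOLM-13 than in MV4-11 cells by 4.26 ± 0.22 (adjusted p = 1.74e-12). Of the 22 member probe sets 17 were lower there, where 30% of all tested probe sets were called lower.

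Across the 8 group means, the class II genes followed CIITA with Pearson r from 0.846 (HLA-DRB1) to 0.988 (CD74), and with r of 0.988 to 0.999 across the 6 MV4-11 means. These are descriptions over few means that share their arrays. Among 3203 other genes whose 8 group means have an SD of at least 0.5, the 5 most like CIITA were ADA (r = 0.9931), PRDM1 (0.9898), CAMK1D (0.9897), PLD4 (0.9893) and SDK2 (0.9889). The 5 most like the mean pattern of the 8 class II genes were PLXNC1 (0.9974), SLC29A3 (0.9971), COL24A1 (0.9957), ZBED3 (0.9951) and L3MBTL1 (0.9947). Of the 3203 genes, 107 had an r of at least 0.95 with CIITA and 152 with the class II pattern, so a high r is not particular to the genes named. PLXNC1 changed by 0.92, 1.42 and 1.88 on days 2, 4 and 6 in MV4-11 cells and by 0.16 in MOLM-13 cells, and ADA by 0.51, 1.15, 1.28 and 0.40.

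The arrays of a group correlated with each other at a mean r of 0.995 to 0.999 over all probe sets, with the lowest mean among the treated MV4-11 arrays of day 6. Of 5 tested monocyte markers 5 rose in MOLM-13 cells and 4 in MV4-11 cells on day 6, and 0 fell in either, including CSF1R (1.41 ± 0.10 and 1.90 ± 0.10) and MPEG1 (2.16 ± 0.08 and 1.58 ± 0.08). Of 3 tested neutrophil markers 2 rose in MOLM-13 cells (MPO and CSF3R) and 3 in MV4-11 cells (these and ELANE). Over all tested probe sets 28% were called higher and 34.8% lower in MOLM-13 cells, and 27.2% and 30.4% in MV4-11 cells of day 6. The summed linear intensity of the 6 measured monocyte markers was 40586 to 46158 in treated and 16904 to 21610 in vehicle MOLM-13 arrays, and 32398 to 41856 in treated and 19395 to 20004 in vehicle MV4-11 arrays of day 6. LYZ was by far the brightest of the 6, so these sums mostly reflect LYZ. Its means were log2 15.35 in treated and 14.15 in vehicle MOLM-13 cells, and 14.99 and 14.16 in MV4-11 cells of day 6. CD14 was at log2 4.42 in treated MOLM-13 cells on average and at the lowest value in treated and vehicle MV4-11 cells of day 6, and FCGR1A was under log2 4 in all arrays. The summed intensity of the 4 measured neutrophil markers was 48837 to 50375 in treated and 36039 to 38190 in vehicle MOLM-13 arrays, and 19265 to 20963 in treated and 9113 to 9486 in vehicle MV4-11 arrays of day 6. ELANE was the brightest of the 4, with means of log2 15.13 and 15.06 in treated and vehicle MOLM-13 cells, and 14.25 and 13.14 in MV4-11 cells of day 6. Of 7 measured B cell markers, MS4A1, CD79A, EBF1 and CR2 were under log2 4 in all arrays, CD79B and PAX5 were not called in either line on day 6, and IGLL1 fell by 3.67 in MOLM-13 cells and rose by 1.04 in MV4-11 cells. Of 8 measured dendritic cell markers, CD1C, XCR1, LAMP3, CCR7 and CD207 were under log2 4 in all arrays, CLEC10A averaged 9.34 in treated and 9.05 in vehicle MV4-11 cells of day 6, FCER1A fell by 0.82 in MV4-11 cells, and FLT3 fell in both lines. Of 5 T cell markers, CD3D rose by 2.74 in MOLM-13 cells, and the other 4 were under log2 4 in all arrays. The part of these markers in the class II values was not tested.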

How the data were processed

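Total RNA of 24 samples was hybridised to Affymetrix arrays, 1 array per sample. The deposited values are probe set intensities made with GCRMA, per the submitters' processing notes, which corrects background from probe sequence and applies quantile normalization; its settings and version were not given. The deposited intensity values lay on a linear scale, from 4.551 to 71593, so log2 was taken with a pseudocount of 0. All 24 arrays share the lowest value, log2 2.19, so a change that starts or ends there depends on the background step, and the number of arrays limits the precision. No pair of arrays was identical (0 pairs).

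The platform annotation lists 1 symbol for 41097 probe sets, several for 1801 and none for 11777, and 62 controls were left out. The means of the 8 groups were fitted over all 24 arrays in limma 3.58.1 (R 4.3.3, moderated two-sided tests), using the 25334 probe sets that reached log2 4 in 3 or more arrays. Benjamini-Hochberg adjustment covered all of them within each comparison. The fit was tested on simulated data. For the members, p-values are given between vehicle cultures, which are an arm of the contrasts used to choose the members, and not between treated and vehicle cultures. A gene with several probe sets is represented by the one with the highest mean among those listing it alone. Same-numbered replicates showed no large shared deviation (r of deviations from -0.23 to 0.092), and the replicate number was left out of the main fit. This check cannot show whether the samples were paired.

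The members and the gene lists were chosen with earlier results of these data known. Genes named are all members, every regulator listed, up to 4 genes of each other pathway list by adjusted p in MV4-11 cells on day 6, and the 5 genes most like CIITA and the class II pattern by Pearson r over the 8 group means. IFNG, the GBP genes, SOCS1, JAK2, CTSL, CTSH, ICOSLG, B2M, TAP2 and the markers, named beyond this rule, were picked after their values were seen. Alternatives were other filters, other sets of arrays, a variance prior with trend, 2 further normalizations, a replicate block, at least 2-fold change, gene-level values, other vehicle arrays for day 4 and leaving out each array. Promoters came from RefSeq. Tables and figures were made with Python 3.11.15, numpy 2.4.6, pandas 2.3.3 and matplotlib 3.10.9.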

Additional observations from a re-analysis of the deposited data

Results flagged for a closer look

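In HLA-DRA (208894_at) on day 6, every treated array lay below every vehicle array in MOLM-13 cells and above it in MV4-11 cells. The inhibitor effect in MOLM-13 minus that in MV4-11 cells was -4.70 on the log2 scale. This difference was not tested. All 6 MOLM-13 arrays were under log2 4, the second probe set overlapped between groups there, and the MOLM-13 call was lost without vehicle replicate 3 or with the mean of probe sets, so no direction is read in MOLM-13 cells.

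Among the regulators of class II transcription, the same difference between lines (MOLM-13 minus MV4-11, log2) passed limma's interaction test at an adjusted p under 0.05 in the following genes. It was -3.35 for PRDM1, -1.23 for RFX5, -0.95 for CREB1, -0.92 for RFXAP, -0.74 for NFYB and -0.74 for EP300. Smaller negative differences were found for NFYC (-0.61), IRF8 (-0.58), RFXANK (-0.57), IRF2 (-0.52) and CREBBP (-0.37). Positive ones were found for NLRC5 (1.46), SPI1 (0.57) and IRF1 (0.53). In RFX5, NFYC and IRF1 the inhibitor moved the gene past the test in opposite directions in the lines. For NFYC the mean of probe sets had -0.39 in MV4-11 cells and the MOLM-13 call was lost under both further normalizations, and for IRF1 the MOLM-13 call was lost without treated replicate 3 or vehicle replicate 1.

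Other genes of the pathway also differed by this test. The difference was -1.87 for CD86, -1.49 for HLA-DRB6, -1.355 for SOCS1 and -1.17 for CTSS. It was -0.92 for MARCHF8, -0.77 for CTSF, -0.65 for CTSL, -0.62 for CD58 and -0.59 for CTSH. It was 0.80 for HLA-DOB, 0.69 for CD83 and 0.29 for IFNGR2. HLA-DPB2 differed by -1.39, which is description only. It passed the filter only through treated MV4-11 arrays and was at the lowest value in MOLM-13 cells. The vehicle MV4-11 arrays of CD86 were low on day 6, so the size of its difference depends on low values. The CTSL call was lost without treated MV4-11 replicate 3 (-0.37), among others. Single arrays ended some of these calls: IRF2 without MOLM-13 vehicle replicate 3 (-0.39) or MV4-11 vehicle replicate 2 (-0.41), and SPI1 without MOLM-13 treated replicate 2 (0.48), MV4-11 treated replicate 3 (0.42) or MV4-11 vehicle replicate 3 (0.43). The call was lost without any of 5 of the 12 arrays for CREBBP, 6 for IFNGR2, 7 for RFXANK and HLA-DOB, and 9 for HLA-DRB6. With the mean of probe sets the difference was not called for CD86 (-0.38), RFXAP (-0.35), MARCHF8 (-0.21) and HLA-DOB (0.27).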

How the results depend on the processing

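The counts of member and pathway calls stayed within 1.5 times their values under other filters, normalizations and a variance prior with trend, and the exceptions follow. At gene level with the highest probe set, the member calls were 8 of 9 on day 2, 9 of 9 on day 4 and 9 of 9 on day 6 in MV4-11 cells, 5 of 9 in MOLM-13 cells and 8 of 9 between vehicle lines, where the number of features is smaller by construction. With the mean of probe sets they were 8, 9, 9, 4 and 8 of 9, and 0 for both vehicle comparisons across days. Requiring at least 2-fold left 4 member calls in MOLM-13 cells, 0 in each vehicle comparison across days, and 3, 8, 6, 6 and 8 pathway genes on day 2, 4 and 6 in MV4-11 cells, in MOLM-13 cells and between the lines. With only the arrays of the comparison, 0 members were called between vehicle days 6 and 2, and 12 pathway genes on day 2. Leaving out each array gave 15 to 16, 21 to 22, 22 to 22 and 8 to 11 member calls in the 4 treatment comparisons, 16 to 17 between vehicle lines, and 0 to 1 for vehicle day 4, with 0 without vehicle day 4 replicate 1. For pathway genes on day 2 in MV4-11 cells, 7 calls became 4 to 6, with 4 without treated replicate 2. With the replicate block, member calls were 15, 21, 22 and 9, and pathway calls 5, 19, 24 and 21, so it moved no count by over 1.5 times. Directions turned in a few features. HLA-DRB1 (208306_x_at) in MOLM-13 cells ran from -0.40 to 0.34 over the arrays left out, 0.34 without vehicle replicate 2. With the mean of probe sets, NFYC was -0.39 and CREB1 -0.20, JAK1 -0.21 and MARCHF8 -0.031 in MV4-11 cells on day 6, JAK1 -0.16 and CTSS -0.52 in MOLM-13 cells, NFYA 0.38 in the difference between lines, NFYC -0.065 for vehicle day 4, and MARCHF8 -0.20 and ICOSLG 1.19 between vehicle lines. With the day 2 and 6 vehicle arrays for day 4, CTSD was 0.19, NFYC 0.20, GBP2 0.30 and ZXDC 0.15. Over the arrays left out, JAK2 ran from -0.44 to 0.39 in MV4-11 cells on day 6, and from -0.34 to 0.49 in the difference between lines, 0.39 and -0.34 without treated MV4-11 replicate 3. The causes were not tested. Signal near the lowest value limits what can be said of HLA-DQA1 in both lines, and of HLA-DRA and HLA-DPA1 in MOLM-13 cells.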

Other observations

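MHC class I genes, which present peptides from the cytosol, were measured beside class II. Of 11 tested genes of the class I list 9 rose and 2 fell in MOLM-13 cells, and 6 rose and 1 fell in MV4-11 cells on day 6, with median log2 changes of 0.40 and 0.33. The shares of all tested probe sets called higher and lower were 28% and 34.8% in MOLM-13 cells, and 27.2% and 30.4% in MV4-11 cells. HLA-C, a class I heavy chain, rose by 0.34 ± 0.07 in MOLM-13 cells (adjusted p = 0.000576) and 0.50 ± 0.07 in MV4-11 cells (adjusted p = 1.17e-05), and HLA-F by 0.48 ± 0.09 (adjusted p = 0.000149) and 0.60 ± 0.09 (adjusted p = 1.87e-05). TAPBP, which bridges class I and the peptide transporter, rose by 0.65 and 0.46, and TAP1, a transporter subunit, by 0.44 and 0.52. The difference between the lines passed the test in none of these 4 genes (adjusted p = 0.189 to 0.71). TAP2, the other transporter subunit, rose in MOLM-13 cells (0.60 ± 0.08, adjusted p = 4.19e-06) and had -0.02 ± 0.08 in MV4-11 cells (adjusted p = 0.872), and the lines differed by 0.62 (adjusted p = 0.000276). B2M, the light chain of class I, fell in MOLM-13 cells (-0.66 ± 0.11, adjusted p = 3.08e-05) and had 0.13 ± 0.11 in MV4-11 cells (adjusted p = 0.336). NLRC5, the class I co-activator, had its larger rise in MOLM-13 cells, and CIITA had its larger log2 change in MV4-11 cells.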
